A study of Mus musculus with 14 samples.

Results

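The genes examined here are those of the 4 mouse Hox clusters, HoxA, HoxB, HoxC and HoxD, in primordial germ cells, from which eggs and sperm later form. Members were taken by name: every gene whose array symbol is Hoxa, Hoxb, Hoxc or Hoxd followed by a number, with antisense names left out. Only probe sets with exactly 1 symbol were used, and a gene with several was read from the one whose mean over the 14 arrays was highest. This gave 33 members among 18194 genes tested. All 33 members matched RefSeq by gene identifier. Hox genes without a probe set of their own were not analysed here.

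The study followed germ cells on expression arrays from embryonic day (E) 9.5 to E13.5, in 7 groups of 2 arrays that the labels call biological replicates. E9.5, E10.5 and E11.5 form a group each, with both sexes together, and the sexes are apart at E12.5 and at E13.5. All embryos older than E9.5 came from BDF1 females mated with stella-EGFP transgenic males, a mixed B6 and CBA background, and were sorted on EGFP after trypsin digestion of genital ridges. The E9.5 cells were C57BL/6, and no transgene or sort is described for them in the sources used here. All 14 samples used 5 ng of RNA, the equivalent of 500 cells, but cDNA was amplified with 22 PCR cycles at E9.5 and 12 cycles later, after RNA isolation with different kits. The E9.5 arrays were made in an earlier study, so age cannot be told apart from strain, kit, cycle number and study in any comparison with E9.5. No group carried a mutation or a treatment according to the labels, and how many embryos went into a sample is not given in the sources used here.

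Hox genes encode homeodomain transcription factors. Within a cluster they are numbered by paralogue group, and the low numbers are switched on earlier and further forward along the body than the high numbers, so that each level of the trunk holds its own combination. Primordial germ cells arise from the same posterior epiblast as Hox-expressing mesoderm and travel through such tissue to the gonads, and they are known for holding this somatic program down, with the repressor Prdm1 (Blimp1) as one of the factors involved.

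In these arrays the Hox genes read highest at E9.5. The median over the 33 members was 6.12 and 4.82 in the E9.5 arrays on the log2 scale of the deposited signals. It was 4.29 and 4.54 at E10.5, 3.75 and 4.11 at E11.5, 3.52 and 3.94 in E12.5 females, 3.85 and 4.16 in E12.5 males, 3.94 and 3.91 in females of E13.5 and 3.83 and 3.77 in males of E13.5. Both E9.5 arrays lay above all later ones, and 21 of the 33 members had their highest group mean at E9.5. The share of all genes that were highest at E9.5 was not counted. The median of all values in the table was 4.72, and a signal below it is called dim here, since no detection calls were used. By group mean, 23 members lay above this level at E9.5, 11 at E10.5, 8 at E11.5, and between 6 and 9 in the groups of E12.5 and E13.5. In single arrays, 68.6% and 67.0% of all genes lay above it at E9.5, and between 65.9% and 67.7% later. Over all groups, 25 of the 33 members (all genes: 74.2%) lay above it in at least 1 group, and 8 never did.

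**Figure D1:**
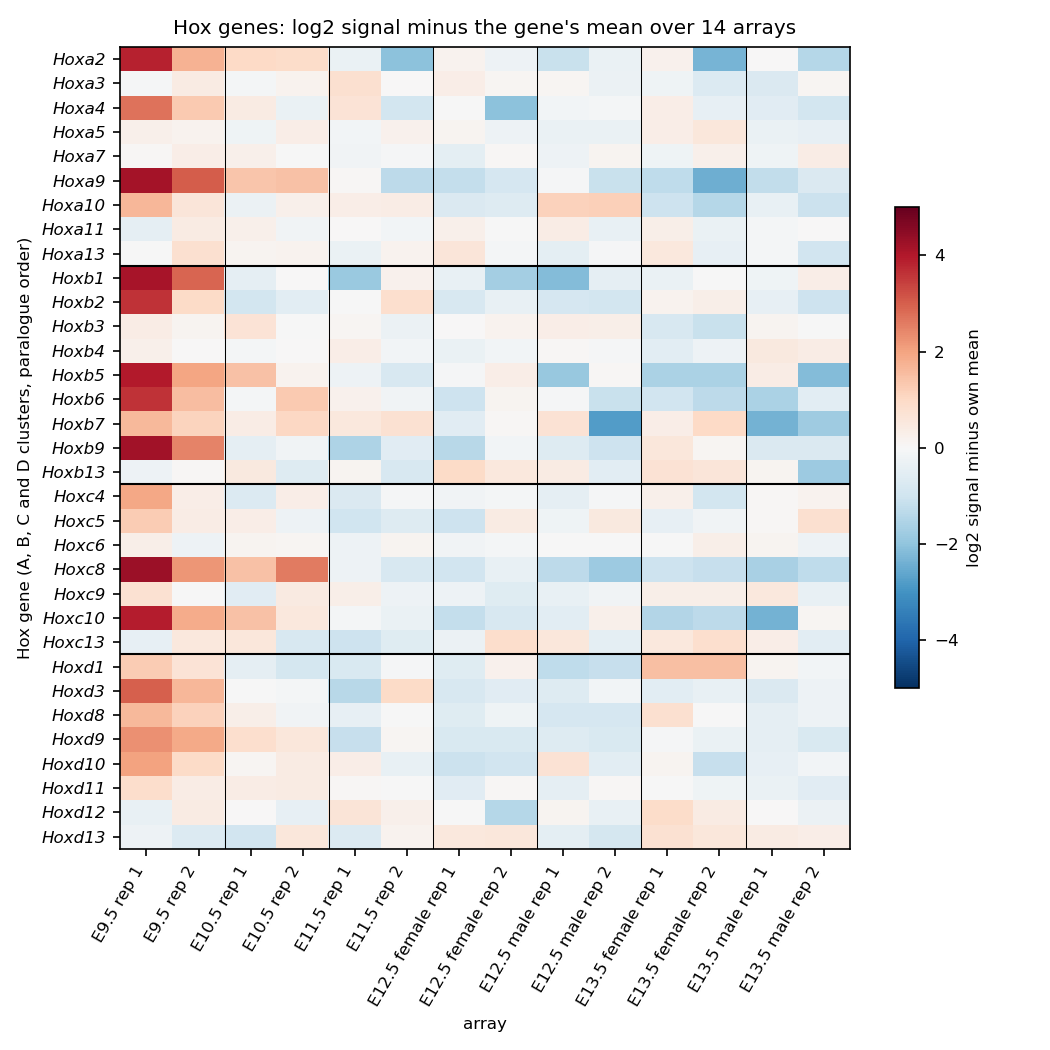
Heatmap of the 33 Hox genes (rows, by cluster and paralogue number) in the 14 arrays (columns). Colour gives the log2 signal minus the gene's own mean over the arrays, from blue (lower) to red (higher). The red block on the left marks E9.5, where 21 genes had their highest group mean (share of all genes not counted). It is palest in the genes of paralogue groups 11 to 13, whose E10.5 minus E9.5 differences lie between -0.23 and 0.28. Of these genes, Hoxb13, Hoxc13 and Hoxd12 were dim by group mean in every group.

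The 14 array medians lay between 4.66 and 4.80, and the correlation of replicates across genes ran from r = 0.961 to 0.981. The germ cell markers on a list of 12 genes, of which 11 were measured, read high in every array, with a mean log2 signal between 11.2 and 12.0. Dppa3 (stella), the gene after which the reporter is named, read between 13.09 and 13.76. The later germ cell gene Dazl was at 5.71 and 3.70 at E9.5 and at 8.96 or above in all later arrays. The 2 E9.5 arrays differed from each other in the Hox genes: replicate 1 was higher than replicate 2 for 26 of the 33 members, with a median gap of 0.59, against 54.7% of all genes and a median gap of 0.07. The difference between the 3′ and 5′ Gapdh control probe sets, a sign of RNA length, was 3.09 and 3.16 in replicate 2 of E13.5 females and males, 2.53 in E11.5 replicate 2 and at most 1.57 elsewhere.

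Promoter sequences of 19 of the 33 members were taken from the RefSeq table (GRCm38.p6), and Hoxb9 and Hoxc8 were not among them. Those of Hoxb1, Hoxa9 and Hoxd1 are shown, and each of these genes has a called difference: Hoxb1 at E10.5, Hoxa9 at E13.5 in both sexes and Hoxd1 in E13.5 females. Hoxa10 and Hoxd9 also had called differences and promoters among those taken, which are not shown. Each line gives the 200 bases before the annotated start, on the gene's own strand.
Hoxb1, chr11:96365558-96365757, plus strand: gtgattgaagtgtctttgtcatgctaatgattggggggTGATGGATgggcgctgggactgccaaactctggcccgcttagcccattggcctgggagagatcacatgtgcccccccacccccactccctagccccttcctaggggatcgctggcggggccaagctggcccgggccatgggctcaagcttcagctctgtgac
Hoxa9, chr6:52227371-52227570, minus strand: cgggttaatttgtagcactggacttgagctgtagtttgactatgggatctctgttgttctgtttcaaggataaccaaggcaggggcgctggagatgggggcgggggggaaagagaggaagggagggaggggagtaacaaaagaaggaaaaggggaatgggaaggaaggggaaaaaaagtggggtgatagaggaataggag
Hoxd1, chr2:74762780-74762979, plus strand: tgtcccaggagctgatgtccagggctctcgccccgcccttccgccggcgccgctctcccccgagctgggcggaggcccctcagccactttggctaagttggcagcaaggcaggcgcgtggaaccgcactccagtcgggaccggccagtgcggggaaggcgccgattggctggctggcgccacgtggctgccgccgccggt
Capitals mark TGATNNAT on either strand, the form bound by HOX proteins together with their PBX partners. In the 250 bases before the start, Hoxb1 held 1 match, whose first base lies 162 bases before the start, and Hoxa9 and Hoxd1 held none. Among all member promoters, 3 of 21 (14.3%) held a match, those of Hoxb1, Hoxa2 and Hoxd11, against 7.68% of the 32851 promoters in the table. The same stretch held 24 CpG dinucleotides at Hoxd1, 7 at Hoxb1 and 3 at Hoxa9, and the median was 13 over member promoters and 6 over all promoters.

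The first comparison sets E10.5, when germ cells reach the genital ridge, against E9.5. From E9.5 to E10.5, Hoxb9 fell by 3.63 (SE 0.554, adjusted p = 0.0104, limma) and Hoxb1 by 3.72 (SE 0.771, adjusted p = 0.0465) on the log2 scale. These were the 2 members called of 33 (6.06%), where 1.06% of all genes passed at an adjusted p under 0.05 in either direction. Of the 33 members, 28 were lower at E10.5, with a median difference of -1.14, against 54.5% of all genes and a median of -0.07 (groups of 2 arrays each). An unadjusted p under 0.05 was reached by 15 members (45.5%) and by 16.1% of all genes. Both E10.5 arrays lay below both E9.5 arrays for 18 of 33 members, which was the case for 20.7% of all genes. Without E9.5 replicate 1, the array with the higher Hox levels, 29 members were still lower but the median difference was -0.62, and no member passed. Without E9.5 replicate 2 it was -1.56, and Hoxb2 and Hoxb9 passed. Without E10.5 replicate 1, 4 members passed (Hoxb1, Hoxb9, Hoxd1 and Hoxd8), and without E10.5 replicate 2 none did. With only the 4 arrays compared in the fit, or with array weights, neither Hoxb1 nor Hoxb9 passed.

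Some genes that mark cells outside the germ line were also higher at E9.5. On the list of blood genes, 6 of the 7 measured were lower at E10.5, and the embryonic globins Hba-x (fell by 2.96, adjusted p = 0.0434) and Hbb-bh1 (fell by 3.58, adjusted p = 0.0110) were called in limma. The 6 include Hba-a1, near 0 at both ages, and Csf1r, with means of 5.605 at E9.5 and 5.495 at E10.5. Ptprc, a marker of white blood cells, was at 3.45 and 3.485. Hba-x read 12.71 and 11.97 at E9.5, 9.73 and 9.03 at E10.5 and between 3.60 and 6.46 later, while the adult globin Hba-a1 was listed at 0 in 9 of 14 arrays. The log2 of the summed blood signal was 14.6 and 13.7 at E9.5, 11.7 and 11.3 at E10.5 and between 6.96 and 8.94 later. On the list of gonadal, mesonephric and mesenchymal genes, 9 of 15 were lower at E10.5, against 54.5% of all genes. None was called by limma, and the median was -0.54. The summed log2 signal of this list was 11.8 and 10.5 at E9.5, 10.5 and 10.3 at E10.5 and between 8.36 and 9.09 from E11.5 on. Of these 15 genes, 12 were higher in the first E9.5 array than in the second, and Nr5a1, Lhx9 and Tcf21 were lower. Twist1 read 8.73 in replicate 1 and 6.08 in replicate 2, Nr2f1 8.48 and 6.48, and Pdgfra 8.26 and 6.52, 3 genes named after their values were seen. By group mean, Wt1, Gata4, Emx2, Tcf21, Nr2f2 and Nr5a1 on the same list were higher at E10.5 than at E9.5. The part of these other cells in the Hox values was not tested. In such bulk samples, fewer cells of a type and less RNA per cell cannot be told apart.

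**Figure D2:**
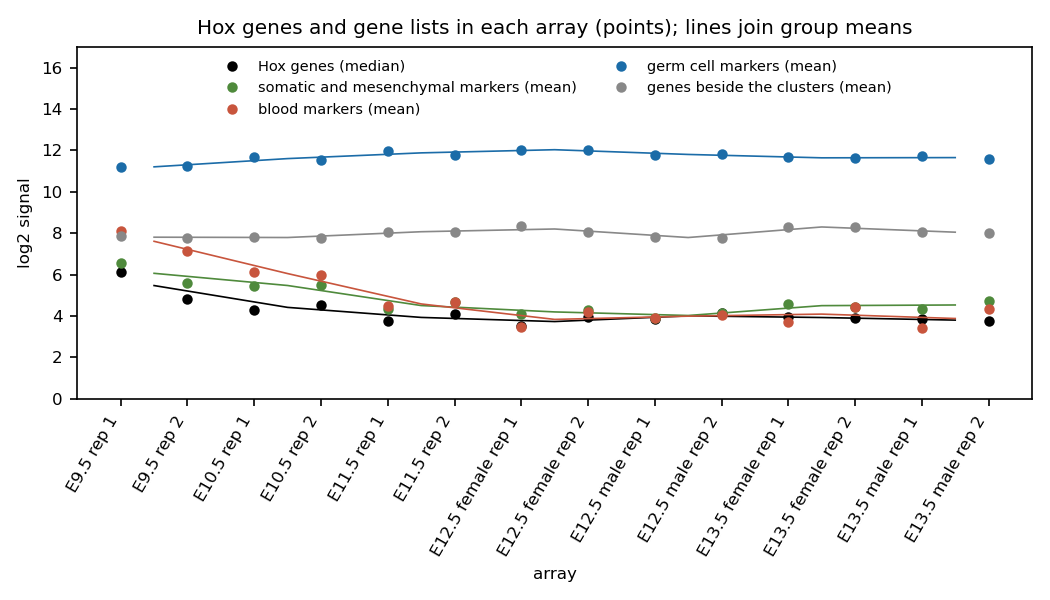
Log2 signal in each of the 14 arrays: the median over 33 Hox genes (black) and the means over lists of germ cell (blue), somatic and mesenchymal (green), blood (red) and cluster-neighbour genes (grey). Points are single arrays and lines join group means as a guide. The Hox, somatic and blood values are highest in E9.5 replicate 1 (Hox median 6.12), while the germ cell and neighbour lists keep within about the same level throughout.

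In the HoxB cluster (chromosome 11), Hoxb1, which gives a segment of the hindbrain its identity, read 7.21 and 6.00 at E9.5, 2.64 and 3.13 at E10.5, 1.24 and 3.30 at E11.5, 2.75 and 1.41 in E12.5 females, 0.92 and 2.66 in E12.5 males, 2.77 and 3.08 in females of E13.5 and 2.90 and 3.45 in males of E13.5. Hoxb2, its neighbour and a hindbrain gene as well, read 7.47 and 4.82 at E9.5, 2.94 and 3.31 at E10.5, 3.84 and 4.70 at E11.5, 3.04 and 3.47 in E12.5 females, 3.0 and 2.92 in E12.5 males, 4.04 and 4.13 in females of E13.5 and 3.44 and 2.80 in males of E13.5. Both genes were above all later arrays in both E9.5 arrays, and Hoxb2 differed by -3.02 between E10.5 and E9.5 (SE 0.669, adjusted p = 0.0612, limma), just outside the threshold. Hoxb1 lost its call without E9.5 replicate 1 (-3.12, adjusted p = 0.335), without E9.5 replicate 2 (-4.33, 0.0562) and without E10.5 replicate 2 (-3.97, 0.169) in limma. Without E9.5 replicate 2, Hoxb2 passed (-4.35, adjusted p = 0.0045).

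Hoxb5, a trunk gene, read 6.12 and 4.15 at E9.5, 3.63 and 2.36 at E10.5, 1.91 and 1.36 at E11.5, 2.10 and 2.49 in E12.5 females, 0.29 and 2.21 in E12.5 males, 0.58 and 0.60 in females of E13.5 and 2.54 and 0.00 in males of E13.5. Hoxb6, expressed in trunk and lateral mesoderm, read 6.85 and 4.77 at E9.5, 3.15 and 4.54 at E10.5, 3.46 and 3.07 at E11.5, 2.20 and 3.38 in E12.5 females, 3.18 and 2.11 in E12.5 males, 2.26 and 1.93 in females of E13.5 and 1.65 and 2.69 in males of E13.5. In both genes E9.5 replicate 1 stood well above every other array, and the E9.5 and E10.5 groups did not overlap. Hoxb9, a gene of the thoracic region, read 8.89 and 7.20 at E9.5, 4.28 and 4.55 at E10.5, 3.18 and 4.14 at E11.5, 3.34 and 4.58 in E12.5 females, 4.05 and 3.69 in E12.5 males, 5.29 and 4.79 in females of E13.5 and 3.97 and 3.99 in males of E13.5. The 2 E9.5 arrays were the highest of the 14, and no later array came near them: E13.5 female replicate 1 was next. Hoxb9 lost its call without E9.5 replicate 1 (-2.79, adjusted p = 0.0848, limma) and without E10.5 replicate 2 (-3.77, 0.0578). The probe sets that represent Hoxb3, Hoxb7 and Hoxb13 stayed dim by group mean in every group, between 2.95 and 4.75, 0.00 and 4.43, and 1.40 and 4.15 over the 14 arrays. Hoxb4 ranged from 3.88 to 4.90 and was above the table median only in E13.5 males by group mean.

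In the HoxA cluster (chromosome 6), Hoxa2, which patterns the second pharyngeal arch, read 6.50 and 4.42 at E9.5, 3.65 and 3.58 at E10.5, 2.35 and 0.60 at E11.5, 2.84 and 2.40 in E12.5 females, 1.54 and 2.32 in E12.5 males, 2.90 and 0.35 in females of E13.5 and 2.67 and 1.23 in males of E13.5. E9.5 lay above E10.5 in both arrays, and E10.5 above every later array. Hoxa9, a trunk gene also known from blood progenitors, read 7.68 and 6.54 at E9.5, 4.90 and 4.97 at E10.5, 3.58 and 2.20 at E11.5, 2.32 and 2.67 in E12.5 females, 3.44 and 2.41 in E12.5 males, 2.23 and 1.05 in females of E13.5 and 2.29 and 2.78 in males of E13.5. Its arrays fell into 3 levels with no overlap: E9.5, E10.5, and everything from E11.5 on. The E10.5 minus E9.5 difference of -2.18 (SE 0.595) did not pass (adjusted p = 0.132, limma).

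Hoxa10, a gene of the lumbar region and of the uterus, read 6.79 and 5.75 at E9.5, 4.85 and 5.41 at E10.5, 5.47 and 5.53 at E11.5, 4.40 and 4.49 in E12.5 females, 6.29 and 6.33 in E12.5 males, 4.10 and 3.71 in females of E13.5 and 4.77 and 4.08 in males of E13.5. Its E12.5 male mean of 6.31 was close to the E9.5 mean of 6.27. Hoxa3, needed for the thymus, read 5.66 and 6.09 at E9.5, 5.61 and 5.86 at E10.5, 6.49 and 5.73 at E11.5, 6.05 and 5.80 in E12.5 females, 5.81 and 5.40 in E12.5 males, 5.49 and 5.03 in females of E13.5 and 4.99 and 5.78 in males of E13.5. Hoxa5, needed for the airways, read 6.95 and 6.88 at E9.5, 6.48 and 7.04 at E10.5, 6.57 and 6.93 at E11.5, 6.85 and 6.47 in E12.5 females, 6.37 and 6.38 in E12.5 males, 7.06 and 7.27 in females of E13.5 and 6.39 and 6.32 in males of E13.5. In these 2 genes the groups of E9.5 and E10.5 overlapped.

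Hoxa7, a thoracic gene, read 6.89 and 7.17 at E9.5, 7.11 and 6.81 at E10.5, 6.67 and 6.77 at E11.5, 6.36 and 6.90 in E12.5 females, 6.58 and 6.97 in E12.5 males, 6.65 and 7.11 in females of E13.5 and 6.62 and 7.23 in males of E13.5. Hoxa11, a gene of forearm and kidney development, read 4.76 and 5.60 at E9.5, 5.46 and 5.03 at E10.5, 5.23 and 5.06 at E11.5, 5.48 and 5.20 in E12.5 females, 5.57 and 4.83 in E12.5 males, 5.49 and 4.87 in females of E13.5 and 5.11 and 5.21 in males of E13.5. In both, the E9.5 and E10.5 arrays overlapped as well. Hoxa4, a neck-level gene, was at 5.38 and 3.97 at E9.5, 3.09 and 2.35 at E10.5 and between 0.64 and 3.34 later. Hoxa13, a gene of digits and genitalia, ranged from 3.50 to 5.23 over the 14 arrays.

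In the HoxC cluster (chromosome 15), Hoxc8, which shapes the thoracic and lumbar vertebrae, read 7.39 and 5.30 at E9.5, 4.58 and 5.71 at E10.5, 2.84 and 2.32 at E11.5, 2.13 and 2.75 in E12.5 females, 1.78 and 1.29 in E12.5 males, 2.08 and 1.94 in females of E13.5 and 1.48 and 1.84 in males of E13.5. E10.5 replicate 2 lay above E9.5 replicate 2, so these ages overlapped, and every array from E11.5 on was lower than all 4 of them. Hoxc10, a gene of hindlimb motor neurons, read 7.14 and 5.04 at E9.5, 4.66 and 3.73 at E10.5, 3.09 and 2.88 at E11.5, 2.02 and 2.40 in E12.5 females, 2.66 and 3.45 in E12.5 males, 1.74 and 1.88 in females of E13.5 and 0.82 and 3.29 in males of E13.5. Hoxc4, a neck-level gene, read 6.41 and 4.82 at E9.5, 3.80 and 4.80 at E10.5, 3.75 and 4.43 at E11.5, 4.31 and 4.38 in E12.5 females, 4.04 and 4.40 in E12.5 males, 4.74 and 3.57 in females of E13.5 and 4.52 and 4.63 in males of E13.5. In both, E9.5 replicate 1 was the highest array, and both E9.5 arrays lay above both E10.5 arrays.

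Hoxc6, a thoracic gene, read 7.11 and 6.58 at E9.5, 6.94 and 6.93 at E10.5, 6.56 and 6.96 at E11.5, 6.64 and 6.70 in E12.5 females, 6.80 and 6.79 in E12.5 males, 6.78 and 7.12 in females of E13.5 and 6.95 and 6.58 in males of E13.5. All 14 values lay within a span from 6.56 to 7.12, and the E9.5 and E10.5 arrays overlapped. Hoxc5 and Hoxc9 were highest in E9.5 replicate 1 at 5.07 and 5.10, and their later values reached 4.59 and 4.88. Hoxc13, known for hair and nails, was dim in all arrays, between 2.02 and 3.94.

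In the HoxD cluster (chromosome 2), Hoxd3, which shapes the first neck vertebrae, read 7.30 and 5.98 at E9.5, 4.29 and 4.21 at E10.5, 2.92 and 5.27 at E11.5, 3.52 and 3.75 in E12.5 females, 3.70 and 4.17 in E12.5 males, 3.78 and 3.97 in females of E13.5 and 3.61 and 4.09 in males of E13.5. Hoxd8, a trunk gene, read 6.76 and 6.29 at E9.5, 5.44 and 4.97 at E10.5, 4.74 and 5.15 at E11.5, 4.54 and 4.96 in E12.5 females, 4.33 and 4.31 in E12.5 males, 5.94 and 5.14 in females of E13.5 and 4.69 and 4.92 in males of E13.5. Hoxd9, a gene of the lower trunk and limbs, read 7.21 and 6.82 at E9.5, 5.76 and 5.46 at E10.5, 3.76 and 5.01 at E11.5, 4.15 and 4.14 in E12.5 females, 4.25 and 4.16 in E12.5 males, 4.84 and 4.57 in females of E13.5 and 4.44 and 4.14 in males of E13.5. In all 3 genes both E9.5 arrays were the highest of the 14. Their E10.5 minus E9.5 differences were -2.39 (SE 0.635), -1.32 (SE 0.339) and -1.41 (SE 0.375), with adjusted p of 0.121, 0.110 and 0.122 in limma.

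Hoxd1, a gene of pain-sensing neurons, read 4.64 and 4.05 at E9.5, 2.90 and 2.49 at E10.5, 2.60 and 3.32 at E11.5, 2.76 and 3.60 in E12.5 females, 2.10 and 2.20 in E12.5 males, 4.88 and 4.87 in females of E13.5 and 3.49 and 3.23 in males of E13.5. It was highest in the E13.5 female arrays and at E9.5. Hoxd10, which acts in hindlimb motor neurons, ranged from 2.50 to 5.64 and was highest in E9.5 replicate 1. Hoxd13, a gene of digits and genitalia, read 5.05 and 4.62 at E9.5, 4.36 and 5.86 at E10.5, 4.64 and 5.47 at E11.5, 5.85 and 5.89 in E12.5 females, 4.81 and 4.44 in E12.5 males, 6.05 and 5.89 in females of E13.5 and 5.72 and 5.64 in males of E13.5. Its highest values were in E13.5 females and in E12.5 female replicate 2, and both E9.5 arrays lay below those. Hoxd11 ranged from 3.74 to 5.18, and Hoxd12 was dim in all arrays, between 0.81 and 3.15.

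**Figure D3:**
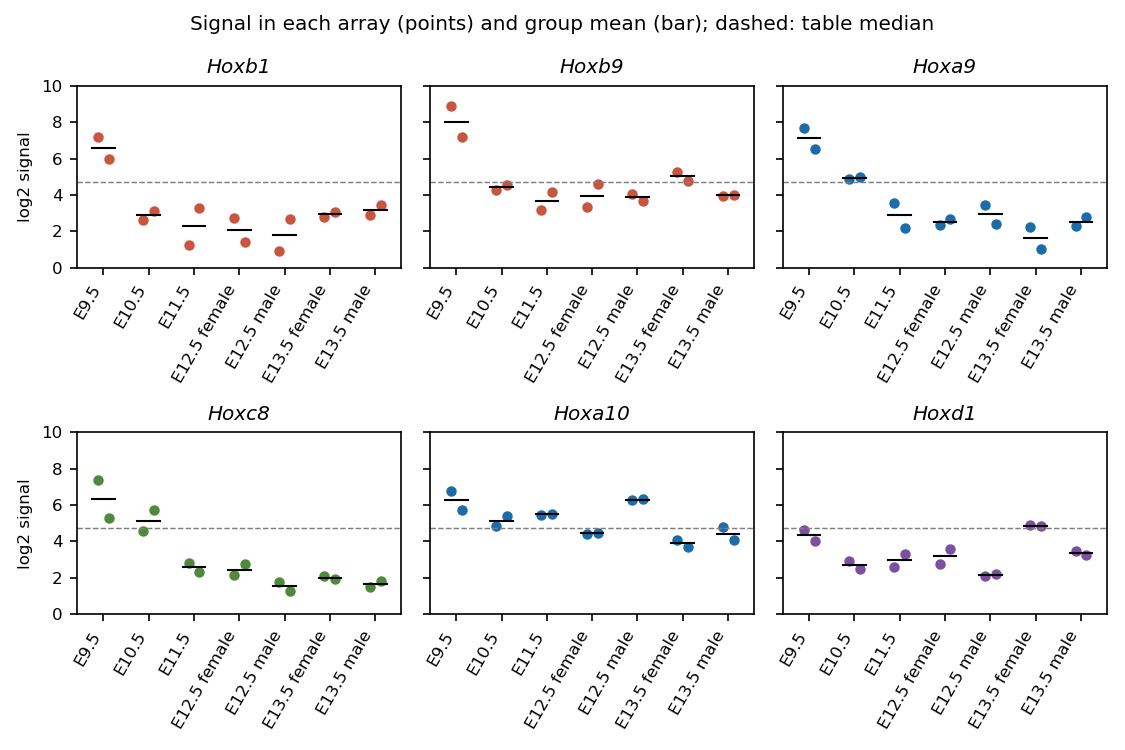
Log2 signal (y axis) by group (x axis) for Hoxb1, Hoxb9, Hoxa9, Hoxc8, Hoxa10 and Hoxd1. Points are single arrays, bars are group means of 2 arrays, and the dashed line is the table median of 4.72. Hoxb1 and Hoxb9 stand highest at E9.5, Hoxa9 and Hoxc8 reach their low level at E11.5, Hoxa10 is high in E12.5 males and Hoxd1 in E13.5 females.

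By position in the clusters, the median difference between E10.5 and E9.5 was -1.75 over the 10 members of paralogue groups 1 to 4, -0.78 over the 9 of groups 5 to 8 and -1.41 over the 7 of groups 9 and 10. Over the 7 members of groups 11 to 13 it was -0.18, with single values from -0.23 to 0.28. In none of these 7 did the 2 ages separate in the probe set used. Hoxb13, Hoxc13 and Hoxd12 among them were dim by group mean in every group, while 4 of the 7 lay above the table median at E9.5. Whether a dim signal hides a fall was not tested. The second Hoxd13 probe set, also dim, did separate, with E10.5 lower (-0.45). The other classes separated, with E10.5 lower, in 7 of 10, 5 of 9 and 6 of 7 members. Among all genes, 20.7% separated in this way, and with 7 members a count of 0 lies near that share. By cluster, the medians were -0.21 for HoxA, -1.97 for HoxB, -0.78 for HoxC and -1.27 for HoxD. The E9.5 arrays also differed from each other by class. Replicate 1 and replicate 2 read 6.04 and 4.62 as the median of groups 1 to 4, 6.85 and 5.30 for groups 5 to 8, 7.14 and 5.75 for groups 9 and 10, and 4.43 and 4.62 for groups 11 to 13. The difference between classes was not tested.

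**Figure D4:**
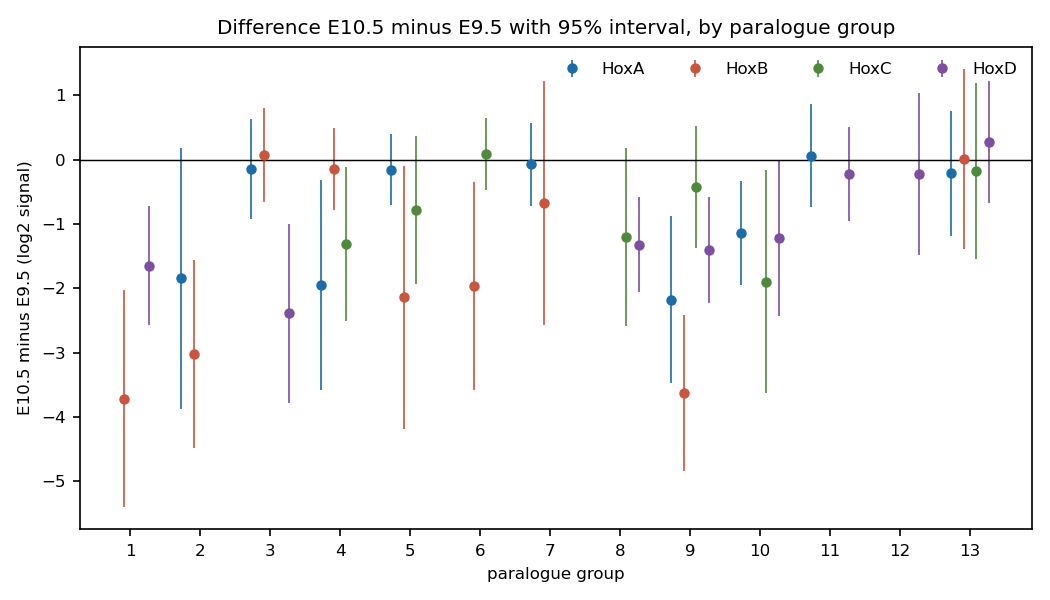
Difference in log2 signal between E10.5 and E9.5 (y axis; below 0, lower at E10.5) against the paralogue group (x axis), coloured by cluster. Bars are 95% intervals from the limma fit over 14 arrays. The values of groups 11 to 13 lie between -0.23 and 0.28, while Hoxb1 and Hoxb9 lie at -3.72 and -3.63. In groups 11 to 13, Hoxb13, Hoxc13 and Hoxd12 were dim by group mean at every age.

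The choice of probe set mattered for several members. Among the 11 members with more than 1 probe set, the brightest one represents the gene, and in Hoxa3, Hoxa5, Hoxb3 and Hoxc6 it differed little between E9.5 and E10.5 where another one differed more. For Hoxc6 the difference between E10.5 and E9.5 was 0.09 in the brightest probe set and -3.64 in the dimmest, which read 9.51 and 5.89 at E9.5, 4.84 and 3.28 at E10.5 and between 1.71 and 3.63 later. The remaining Hoxc6 probe set differed by -0.985. For Hoxb3 the values were 0.07 and -2.76, and for Hoxa5 -0.16 and -1.91. Of the 4 Hoxa3 probe sets, only the dimmest differed by much (-2.74), against -0.14 in the brightest and -0.42 and -0.05 in the others. The second Hoxb3 probe set read 6.55 and 4.80 at E9.5, above the table median, and between 0.83 and 3.21 in all other arrays. For Hoxa4 and Hoxd8 both probe sets gave close values, -1.96 and -1.85 for Hoxa4 and -1.32 and -1.20 for Hoxd8. Hoxa9 and Hoxa10 were the other way round. The dimmer Hoxa9 probe set, which never exceeded 2.90, differed by -0.40 against -2.18 in the brightest. The dimmer Hoxa10 probe set, which never exceeded 4.06, differed by -0.005 against -1.14 in the brightest. For Hoxc5 the brightest differed by -0.78 and the others by -1.655 and -0.065. Hoxb4 was slightly lower at E10.5 in its brightest probe set (-0.145) and higher in the other, which was dim. The E10.5 minus E9.5 values of Hoxa3, Hoxa5, Hoxa9, Hoxa10, Hoxb3, Hoxb4, Hoxc5 and Hoxc6 therefore depend on the probe set, and not always in the same direction. Which probe set measures the gene best was not tested. With every probe set fitted on its own, 1 of 48 Hox probe sets was called at E10.5 against E9.5, that of Hoxb9.

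**Figure D5:**
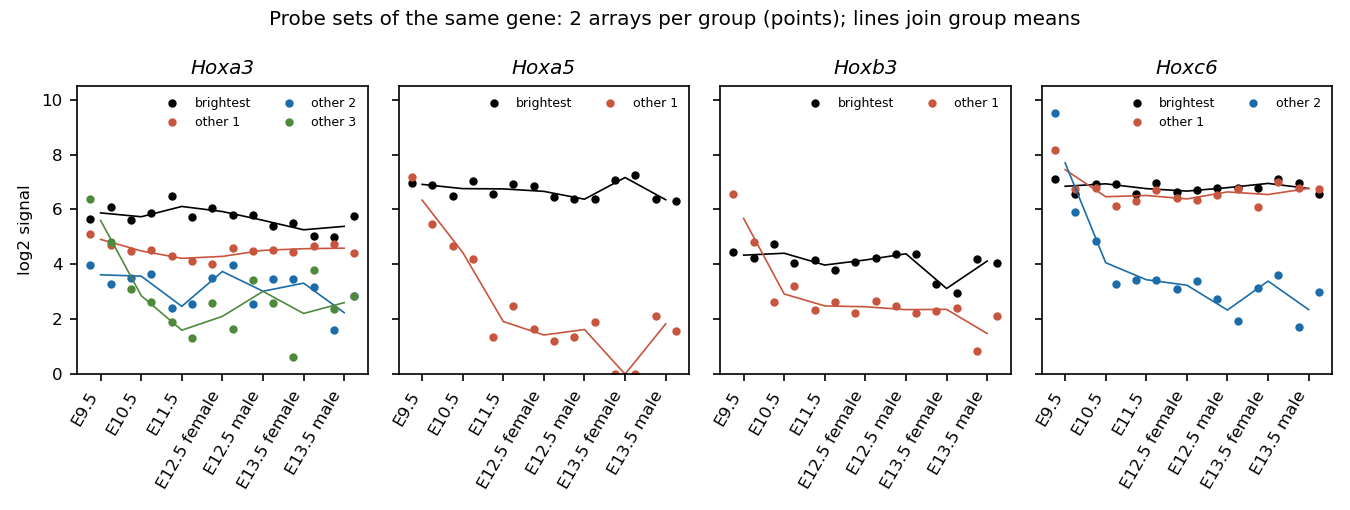
Log2 signal (y axis) of the probe sets of Hoxa3, Hoxa5, Hoxb3 and Hoxc6 by group (x axis). Points are single arrays, 2 per group, and lines join group means as a guide. Black marks the brightest probe set, which represents the gene, and colours the others. In each gene the black points of E9.5 and E10.5 overlap, while 1 other probe set is high at E9.5 and low later.

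Between E10.5 and E11.5 no member was called by limma, against 0.0769% of all genes, and 5 members (15.2%) had an unadjusted p under 0.05, against 7.07% of all genes. The median difference over members was -0.26, with 26 of 33 lower, against 0.01 and 48.2% over all genes. From E11.5 to E12.5 no member was called by limma in females (1.85% of all genes) or in males (1.0%), and 2 members in each sex (6.06%) had an unadjusted p under 0.05, against 13.4% of all genes in females and 9.36% in males. From E12.5 to E13.5 none was called in females by limma (1.91% of all genes), with 5 members (15.2%) at an unadjusted p under 0.05, against 15.0% of all genes. In males Hoxa10 was called, 1 of 33 where 2.10% of all genes passed. It fell by 1.89 (SE 0.318, adjusted p = 0.0157, limma), from a mean of 6.31 to 4.43. That call was lost without E12.5 male replicate 1 (-1.91, adjusted p = 0.148, limma), without E12.5 male replicate 2 (-1.87, 0.0801) and without E13.5 male replicate 2 (-1.54, 0.124). With the mean of both Hoxa10 probe sets it was lost as well (-1.26, adjusted p = 0.284, limma).

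Over the whole interval from E10.5 to E13.5, Hoxc8 and Hoxa9 fell in both sexes. In females Hoxc8 fell by 3.14 (SE 0.522, adjusted p = 0.00197, limma) and Hoxa9 by 3.30 (SE 0.600, adjusted p = 0.00331), and Hoxd1 rose by 2.18 (SE 0.430, adjusted p = 0.00519). Hoxc10 fell by 2.39 (adjusted p = 0.0438), Hoxb3 by 1.29 (0.0244) and Hoxa10 by 1.23 (0.0220) in the same limma fit. These 6 of 33 members (18.2%) stand beside 17.8% of all genes called. The median over members was -0.10 against 0.08 over all genes, and both E13.5 female arrays lay below both E10.5 arrays for 13 of 33 members, against 20.6% of all genes. Hoxc8, Hoxa9 and Hoxd1 kept their calls when any 1 of the 4 arrays was left out. With probe sets averaged within each gene, Hoxa9 lost its call (-1.60, adjusted p = 0.100, limma; 0.10 in its dimmer probe set), and so did Hoxa10 (-1.08, 0.181) and Hoxb3 (-0.92, 0.104). Hoxc10 lost its call in each of the 4 cases (-1.92 to -2.85, adjusted p from 0.0526 to 0.178, limma). Hoxb3 lost it without E10.5 replicate 1 (-0.94, adjusted p = 0.145), E13.5 female replicate 1 (-1.46, 0.0571) and E13.5 female replicate 2 (-1.12, 0.120) in limma. Hoxa10 lost it without E10.5 replicate 2 (-0.95, adjusted p = 0.122) and E13.5 female replicate 2 (-1.03, 0.124) in limma. Without E13.5 female replicate 2 the count was 3. The Hoxb3 value is that of the brightest probe set. The second one read 2.31 and 2.41 at E13.5 in females.

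In males, against the same E10.5 arrays, Hoxc8 fell by 3.49 (SE 0.522, adjusted p = 0.00143, limma), Hoxa9 by 2.40 (SE 0.600, adjusted p = 0.0242) and Hoxd9 by 1.32 (SE 0.387, adjusted p = 0.0494). That is 3 of 33 members (9.09%) where 12.7% of all genes were called. The median was -0.40 against 0.07, and both E13.5 male arrays lay below both E10.5 arrays for 16 of 33 members, against 20.8% of all genes. Hoxc8 kept its call without any 1 of the 4 arrays (-2.92 to -4.05). Hoxa9 (-2.16 to -2.65, adjusted p from 0.0634 to 0.133, limma) and Hoxd9 (-1.17 to -1.47, adjusted p from 0.0827 to 0.221) lost it without each of them. Without E10.5 replicate 1 or E13.5 male replicate 1 the count was 1. With probe sets averaged, Hoxa9 was at -0.96 (adjusted p = 0.376, limma), and its dimmer probe set differed by 0.49. Of the 15 gonadal and mesenchymal genes, 11 were lower at E13.5 in females and 12 in males, with 4 called in each, and of the 8 endothelial genes 8 and 7 were lower, with 5 and 3 called. Col3a1 fell by 3.53 in females and 2.55 in males, Wnt5a by 2.33 and 2.99, and Emcn by 2.74 and 2.08, all called in limma. Gata4 went the other way in males, with a mean of 5.095 at E10.5 and 6.02 at E13.5. From E12.5 to E13.5, Nr2f1 rose by 2.555 in females and Col3a1 by 1.61 in males, both called in limma. The part of these genes in the Hox values was not tested. The females and males share the E10.5 arrays, so these comparisons are not independent.

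Between the sexes, Hoxa10 was the 1 member of 33 called at E12.5, where 2.39% of all genes were. It was higher in males by 1.87 (SE 0.318, adjusted p = 0.0138, limma), with means of 6.31 ± 0.0283 in males and 4.45 ± 0.0636 in females (SD, n = 2). All 4 arrays separated by sex with close replicates, but the call was lost without any 1 of them (1.82 to 1.91, adjusted p from 0.0935 to 0.133, limma). The second Hoxa10 probe set read 4.06 and 2.21 in males and 2.25 and 0.00 in females, and the groups overlapped. The mean of both gave 1.94 (adjusted p = 0.0791, limma). At E13.5 no member was called by limma, where 10.2% of all genes were, and 8 members (24.2%) had an unadjusted p under 0.05, against 22.3% of all genes. Hoxd1 came closest, with a difference of -1.51 (SE 0.43, adjusted p = 0.0502, limma) (males minus females), from 3.49 and 3.23 in males and 4.88 and 4.87 in females. No member was called for the change of the sex difference between E12.5 and E13.5 (0.0110% of all genes; 1 member (3.03%) at an unadjusted p under 0.05, against 7.42% of all genes, limma).

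Hox proteins bind DNA with TALE cofactors of the PBX, MEIS and PKNOX families. Of 8 cofactor genes measured, Meis2 alone was called by limma in any comparison, and it fell from E10.5 to E13.5 by 1.56 in females (adjusted p = 0.00240) and by 1.50 in males (0.00418). Meis2 read 9.11 and 7.88 at E9.5, 7.85 and 8.18 at E10.5, and between 6.24 and 6.67 at E13.5. Pbx2 read between 7.70 and 9.68 and Pknox1 between 7.97 and 8.84 over the 14 arrays, and Meis3 between 5.92 and 8.09.

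Among genes known to regulate Hox clusters, 15 of the list of 16 were measured. Cdx2, a caudal-type activator of Hox genes, read 7.23 and 7.46 at E9.5, 5.86 and 5.15 at E10.5, 3.58 and 4.54 at E11.5, 6.62 and 6.54 in E12.5 females, 2.92 and 2.82 in E12.5 males, 7.36 and 7.83 in females of E13.5 and 1.65 and 1.28 in males of E13.5. It fell from E9.5 to E10.5 by 1.84 (adjusted p = 0.0369, limma) and rose from E11.5 to E12.5 in females by 2.52 (0.0116). At E13.5 the difference between males and females was -6.13 (males minus females, adjusted p = 1.44e-05, limma), with no overlap of the arrays. Its relatives Cdx1 (-1.55, adjusted p = 0.00705) and Cdx4 (-1.93, 0.0253) were also lower in males at E13.5 in limma. Aldh1a2, which makes retinoic acid, was higher in males than in females at E13.5 by 1.63 (adjusted p = 0.00401, limma). Kmt2a, a histone methyltransferase that maintains Hox expression, rose by 0.92 from E10.5 to E13.5 in males (adjusted p = 0.0165, limma), and Fgf8 rose in both sexes (2.02 and 2.57, adjusted p = 0.0117 and 0.00422). Gmnn read between 12.10 and 12.88 and Men1 between 9.59 and 10.55 in all arrays, and Kat6b reached a group mean of 10.1. Prdm1, the repressor named above, read between 9.60 and 11.03 and fell by 0.82 from E10.5 to E13.5 in females (adjusted p = 0.0108, limma). No Hox member was called between the sexes at E13.5, and 8 members (24.2%) had an unadjusted p under 0.05 in limma, against 22.3% of all genes. A link between the Cdx2 difference and the Hox values was not tested.

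All 13 listed genes that lie beside the clusters were measured. Between E10.5 and E9.5 none was called by limma, 6 of 13 were lower, and their median difference was 0.04. Hibadh beside HoxA read between 10.91 and 11.94, Skap2, also beside HoxA, between 9.99 and 11.50 and Mtx2 beside HoxD between 10.00 and 11.75. Calcoco2, an autophagy receptor gene beside HoxB, differed between the sexes: it was at 11.44 and 11.39 in females and 6.84 and 7.14 in males at E12.5, a difference of -4.43 (males minus females, adjusted p = 0.000259, limma). At E13.5 it was at 10.88 and 11.27 in females and 6.54 and 7.22 in males (-4.20, adjusted p = 0.000120). Skap2 differed by -0.85 between males and females at E13.5 (males minus females, adjusted p = 0.0234, limma), and Skap1, Mtx2 and Calcoco1 were each called once or more between E10.5 and E13.5.

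The remaining marker lists were read as a check on other cells. Of 8 endothelial genes, none was called at E10.5 against E9.5 (median 0.19), and 5 in females and 3 in males fell from E10.5 to E13.5 by limma. Of 6 gut genes, all were lower at E10.5 with none called (median -0.61), and Krt18 and Foxa1 were lower in males than in females at E13.5. Of 6 neural genes, 5 were lower at E10.5 with none called (median -0.49), and Neurod1 read 7.29 and 6.57 at E9.5, 5.30 and 4.37 at E10.5 and at most 4.43 later. The neural genes did not move together. From E10.5 to E13.5, limma called Pax6 higher in both sexes (by 1.605 in females and 1.235 in males). Over the same interval, Neurod1 (-2.685) and Tubb3 (-1.17) were called lower in females. Between the sexes, Tubb3 was called higher in males, by 1.465 at E12.5 and 1.765 at E13.5.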

How the data were processed

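Each array's deposited file holds 1 log2 signal per probe set, which the authors normalized over all 14 arrays together, per the series' design text. The sources used here name no summarization software. The table held 45101 probe sets (64 controls) with values from 0 to 14.04. The log2 scale was read from this range. Of the probe sets, 34958 carry 1 gene symbol and were used, while 932 with several symbols and 9211 without one were not. Two-sided limma 3.58.1 models (R 4.3.3; 1 mean per group, intensity trend) were fitted over all 18194 genes, with 14 arrays for E10.5 against E9.5 and the 12 arrays from E10.5 on for the other 10 comparisons (7 and 6 residual degrees of freedom). A member was called at a Benjamini-Hochberg adjusted p under 0.05. P-values measure the spread between 2 arrays per group, pooled over groups, and the number of arrays limits the precision. The fit was tested on simulated data.

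Members, gene lists and tests were chosen with earlier results of these data known. All members above the table median in a group, or called, are described; values in every array are given for about 20, by highest group mean, and for called members. Listed genes are named only if called or among the 4 with the highest group mean, apart from Hba-a1 and the genes in the next sentence. Not every called gene of the lists is named. Prdm1, Neurod1, Pax6, Tubb3, Nr5a1, Lhx9, Tcf21, Twist1, Nr2f1, Pdgfra and Dazl were named after their values were seen, and so were Wt1, Gata4, Emx2, Nr2f2, Csf1r and Ptprc. The settings tried are given in the closing section. Probe sets shared by several genes were left out.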

Additional observations from a re-analysis of the deposited data

Results flagged for a closer look

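Hoxa10 differed between the sexes at E12.5, by 1.87 on the log2 scale (males minus females, adjusted p = 0.0138, limma). Males were at 6.29 and 6.33 and females at 4.40 and 4.49. It is the same difference as the E12.5 result given above, not a further one. The E11.5 arrays, at 5.47 and 5.53, hold both sexes together, so a change from E11.5 within each sex was not measured. As stated above, the call was lost when any of the E12.5 arrays was left out.

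The second probe set of Hoxa5, which does not represent the gene in the counts above, gave a signal that the brightest one did not. It read 7.20 and 5.48 at E9.5, 4.66 and 4.21 at E10.5, 1.36 and 2.47 at E11.5, and 0.00 in both E13.5 female arrays. With all 45037 probe sets fitted on their own, its E13.5 minus E10.5 difference was -4.44 for females and -2.61 for males, both called by limma. The female arrays stand at 0, the lowest value in the table, so the sizes in females and males cannot be compared. A probe set of the antisense transcript Hoxd3os1, which the choice by name leaves out, was higher at E13.5 than at E10.5 by 2.03 in females and 2.76 in males in the same fit, also called. The other Hoxd3os1 probe set differed by -0.68 and -0.16, and was not called. The first read 3.90 and 2.86 at E10.5, 5.40 and 4.86 at E11.5, and between 4.98 and 6.64 later.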

How the results depend on the processing

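The differences of the 26 gene results followed over the alternatives (called members, and members at an unadjusted p under 0.05 between E10.5 and E9.5) kept their direction in all 323 alternative values, with 257 on the same side of the threshold, 63 calls lost and 3 gained. For E10.5 against E9.5, where 2 members were called, 0 were called without genes below the median gene (only Hoxa5, Hoxa7 and Hoxc6 were then tested), 1 with the mean of all probe sets, 1 without the intensity trend, 0 with only the arrays compared, 0 with array weights, 1 with the replicate block and 1 with every probe set fitted on its own, an alternative chosen after seeing the data. Leaving out 1 array gave 0 to 4. For E13.5 females against E10.5 (6 called), the counts were 0 without genes below the median gene, and 3 each with only the arrays compared, with array weights and with the Gapdh difference as covariate, with 3 to 5 when 1 array was left out. For E13.5 males against E10.5 (3 called), they were 0 without genes below the median gene, 1 with array weights and 1 with the Gapdh covariate, with 1 to 2 when 1 array was left out. For E13.5 against E12.5 males (1 called), they were 0 without genes below the median gene, 0 with the mean of all probe sets, 0 with only the arrays compared and 0 with the Gapdh covariate, with 0 to 1 when 1 array was left out. For males against females at E12.5 (1 called), they were 0 without genes below the median gene, 0 with the mean of all probe sets and 2 with array weights (Hoxa10 and Hoxd13), with 0 when any 1 array was left out. For males against females at E13.5 (0 called), 1 was called with the mean of all probe sets (Hoxd1), 1 without the trend (Hoxd1), 1 with only the arrays compared (Hoxb7) and 1 with all 14 arrays in the fit (Hoxd1). For E13.5 against E12.5 females (0 called), array weights gave 1 (Hoxd1). The causes were not tested.

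The main fits did not pair arrays by replicate number. The replicate differences of 2 groups correlated with r from -0.215 to 0.276 over 21 pairs of groups, 3 of them above 0.1. The Gapdh difference was higher in replicate 2 than in replicate 1 in each group from E10.5 on, and lower at E9.5. A batch that goes with the replicate number was not tested beyond the replicate block. The replicate block changed Hoxb1 at E10.5 (1 call left, Hoxb9) and Hoxd9 in E13.5 males (2 left), and no other call of a member. Signals near 0 have no order, and background signal was not separated from expression.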

Other observations

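The antisense transcript Hoxb5os, which lies in the HoxB cluster and is not a member by name, read 9.94 and 8.04 at E9.5, 6.88 and 6.77 at E10.5, and between 6.06 and 7.36 later. A probe set of Hoxa11os read 5.60 and 3.63 at E9.5, 3.63 and 2.36 at E10.5 and at most 3.67 later, while the other was at 2.68 and 2.77 at E9.5 and 3.53 and 2.87 at E10.5. Hoxb5os and the first Hoxa11os probe set had their highest value in E9.5 replicate 1, the array in which 26 of 33 Hox genes were above replicate 2.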
